A study of Mus musculus with 16 samples.

Results

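Mature medullary thymic epithelial cells with high MHC class II (mTEChi) from mice that lack Psmb11 were compared with the same cells from wild-type mice. The comparison used 6 of the 16 libraries of the series, 3 labelled mTEChi and psmb11 -/- (KO) and 3 labelled mTEChi and psmb11 +/+ (WT), and was fitted with these 6 libraries alone. The other libraries are cortical epithelial cells (cTEC, 2 of each genotype) and MHC class II low medullary cells (mTEClo, 3 of each genotype). All 16 are bulk RNA-seq libraries from sorted mouse thymus cells, with the strain given as C57BL/6-derived BAC for KO and WT alike. The only label that separates the groups is the Psmb11 genotype.

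The labels do not agree on the animals. Each sample is labelled 6 to 8 weeks old and the series text speaks of 11 thymi, while the shared protocol speaks of 14 mice aged 7 days. Cells were sorted after staining for CD45, EpCAM, Ly51 and the lectin UEA1, with medullary cells taken as EpCAM and UEA1 positive, and the protocol does not describe the MHC class II gate. No label ties a library to a number of animals. Each mTEChi library held both Xist and Y-linked transcripts (values below), so each held RNA of both sexes and thus of more than a single animal. How many thymi went into each is not given. The p-values measure the spread between these libraries, which may be technical.

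Psmb11 encodes the catalytic beta subunit that defines the thymoproteasome, a form of the proteasome found in cortical thymic epithelium, where it cuts the peptides shown on MHC class I to developing CD8 T cells. Mature medullary cells do another job: through Aire and Fezf2 they transcribe genes of many peripheral tissues, and they present the products to delete or divert self-reactive T cells. Most medullary cells descend from progenitors that once transcribed Psmb11, and part of the medulla consists of mimetic cells, which resemble tuft, microfold, muscle, ciliated and other peripheral cells.

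The sorted cells carried the markers of their label. Aire was at 1452 to 1642 CPM (read counts per 1000000 reads in genes, scaled by TMM over the 16 libraries) in WT mTEChi against 8.14 to 18.5 CPM in WT mTEClo, and the cortical protease gene Prss16 was at 47.0 to 54.2 CPM in WT mTEChi against 978 to 1240.0 CPM in WT cTEC. The mTEChi libraries held 64753610 to 146707262 reads assigned to genes, so that 3 counts corresponded to at most 0.0463 CPM. Transcripts of thymocytes were highest in the number 1 libraries, at 430 CPM in KO and 341 CPM in WT summed over 18 genes, against 238 to 260.4 CPM in the other 4. Reads outside annotated genes made up 21.5, 19.8 and 22.4% in KO and 23.4, 23.7 and 23.2% in WT. Every KO library was lower, with means of 21.2 ± 1.31% and 23.5 ± 0.255% (SD, n = 3, two-sided exact permutation p = 0.1, the smallest that 3 against 3 allows). The part of this difference in the results was not tested.

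Psmb11 is a gene with 1 coding exon in its main transcript, on the plus strand of mouse chromosome 14 (GRCm38, 54625310 to 54629556). The coding sequence takes 906 of the 4247 bases of that exon and the rest is nearly all 3′ untranslated. The first 300 coding bases (GENCODE vM21 transcripts, chr14:54625327-54625626, plus strand) are shown because they are the start of the reading frame that the genotype label refers to, with the start codon in capitals.
Psmb11 coding start: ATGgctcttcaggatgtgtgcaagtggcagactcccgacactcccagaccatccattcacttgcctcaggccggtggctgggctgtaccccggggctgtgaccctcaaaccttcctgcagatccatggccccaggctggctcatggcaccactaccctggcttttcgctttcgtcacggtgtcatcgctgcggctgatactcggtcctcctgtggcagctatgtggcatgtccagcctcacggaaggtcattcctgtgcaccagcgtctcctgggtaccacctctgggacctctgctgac
The labels do not say which part of the gene was removed, and the deposited counts sum over the whole gene, so the reads counted in KO libraries cannot be placed within or outside this frame.

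Psmb11 was the 1 gene past the threshold in the edgeR fit of the 6 mTEChi libraries. KO libraries had 74, 87 and 172 reads of it and WT libraries 889, 1672 and 598, which gave 0.777, 1.22 and 1.19 CPM in KO and 10.3, 12.9 and 9.31 CPM in WT (scaled by TMM over the 6 mTEChi libraries, as are the CPM of single genes below unless another set is named). Sums of CPM over a gene list are scaled over the 16 libraries and are not on this scale. CPM given with the test of the difference between mTEChi and mTEClo are scaled over the libraries of that fit. All 3 KO libraries lay far below all 3 WT libraries, and none was at 0. Psmb11 fell from 10.8 ± 1.88 to 1.06 ± 0.248 CPM (SD, n = 3), a log2 fold change of -3.35 (SE 0.18, 95% interval -3.74 to -2.96, edgeR adjusted p = 2.43e-07).

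The WT level in mTEChi was itself low. Per kilobase, in the authors' RPKM, it was 1.92 ± 0.329 (SD, n = 3) in WT mTEChi, 1.71 ± 0.473 (n = 3) in WT mTEClo and 27.1 ± 2.33 (n = 2) in WT cTEC. In the same unit KO mTEChi was at 0.198 ± 0.0429 (n = 3). The mTEClo libraries gave a log2 fold change of -2.93 in their own fit, and the difference between the populations, mTEChi minus mTEClo, was -0.41 (SE 0.33, edgeR adjusted p = 0.976). Counts in cTEC were 15214 and 12756 in WT and 157 and 0 in KO. In bulk libraries, fewer cells that transcribe a gene and less RNA per cell cannot be told apart.

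**Figure D1:**
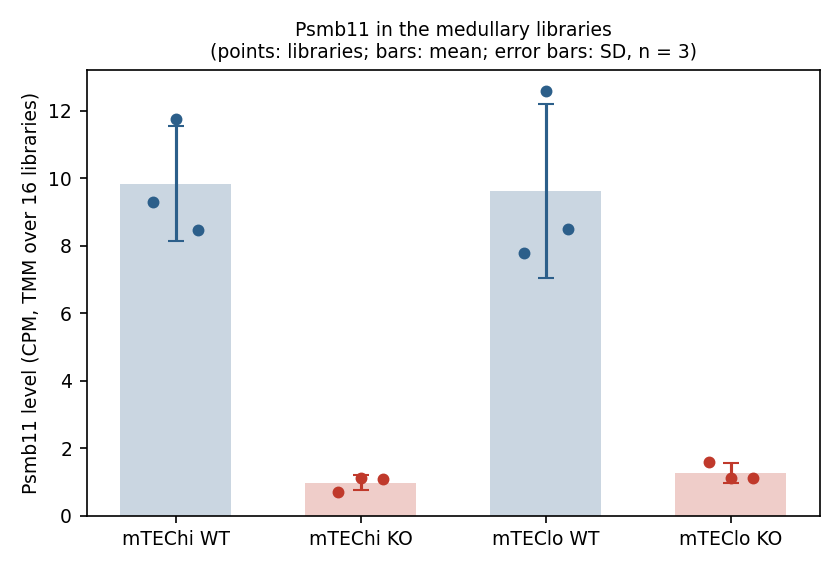
Psmb11 level in CPM (y axis, scaled by TMM over all 16 libraries) for each of the 12 medullary libraries by population and genotype (x axis), with points for libraries, bars for means and error bars for SD (n = 3). All KO libraries lie below all WT libraries in both populations.

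Over the rest of the transcriptome no gene passed the threshold. Of 19614 genes tested, 1 (0.0051%) had an edgeR adjusted p below 0.05, 0 of them higher in KO, and that 1 was Psmb11. Unadjusted p-values were below 0.05 for 822 genes (4.19%), 323 higher (1.65%) and 499 lower (2.54%) in KO. The 3 KO and 3 WT levels did not overlap for 1721 genes (8.77%), 803 higher (4.09%) and 918 lower (4.68%). Log2 fold changes were above 0 for 9681 genes (49.4%) with a median of -0.002. These shares are the background for the 34 gene lists that follow. Over all lists, none of which holds Psmb11, edgeR called 0 of 596 distinct genes, DESeq2 and limma called 0 as well, and 45 had an edgeR unadjusted p below 0.05, 25 higher and 20 lower in KO.

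The intervals show how much change the data leave room for. The 95% interval of the log2 fold change stayed within 2-fold in either direction for 17139 genes (87.4%), within 1.5-fold for 14821 (75.6%) and within 1.25-fold for 10177 (51.9%). The reach depended on the level. Among genes at 10 to 100 CPM, 9215 of 9220 had an interval within 2-fold, against 372 of 2456 genes below 1 CPM. An estimate of 2-fold or more was found for 7 genes that averaged 1 CPM or above in KO or in WT. Besides Psmb11 and 2 clone-named genes these were Svs1, a seminal vesicle protein gene (log2 fold change 1.14), Tmem212 (1.35), Ocstamp, a gene of osteoclast fusion (1.02), and Cntn6, a neural adhesion gene (1.04), which are named after their values were seen. None of the 7 other than Psmb11 passed the threshold.

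**Figure D2:**
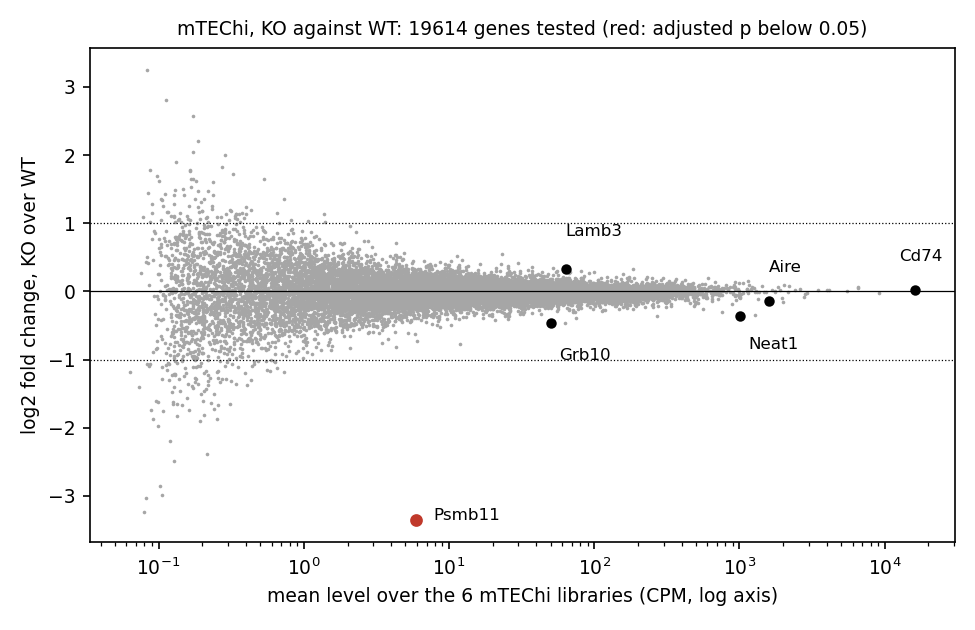
Log2 fold change of KO over WT (y axis) against the mean level over the 6 mTEChi libraries in CPM (x axis, log axis) for 19614 genes, with dotted lines at 2-fold. Psmb11, in red, is the 1 gene past the threshold, and the spread of the other genes narrows as the level increases.

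Behind Psmb11, the smallest p-values in either direction belonged mostly to differences well under 2-fold, and all missed the threshold in edgeR. Lower in KO were Grb10, an imprinted adaptor that restrains insulin and IGF receptor signalling, the nuclear long noncoding RNAs Neat1 and Miat, the orphan receptor gene Gpr101, and Ddx26b. Higher in KO were Lamb3, a chain of the basement membrane laminin of stratified epithelium, the chemokine gene Ccl6, the complement factor B gene Cfb, the matrix protease gene Mmp7, the potassium channel gene Kcnf1 and the Y-linked helicase gene Ddx3y.

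Grb10 stood at 43.4, 38.1 and 46.04 CPM in KO and 57.98, 61.4 and 55.8 CPM in WT. Each KO library was below each WT library, with a log2 fold change of -0.46 (SE 0.08, edgeR adjusted p = 0.301). Neat1, which builds the paraspeckles of the nucleus, was at 948, 816 and 909 CPM in KO and 1092, 1116 and 1209 CPM in WT (log2 fold change -0.35, SE 0.07, edgeR adjusted p = 0.695). Miat was at 69.02, 57.2 and 69.7 CPM in KO and 82.6, 89.3 and 84.2 CPM in WT (log2 fold change -0.39, SE 0.08, edgeR adjusted p = 0.695). In all 3 the second KO library was the lowest of the 6. Gpr101 was at 3.73, 2.38 and 3.20 CPM in KO and 4.75, 5.72 and 5.96 CPM in WT, with a log2 fold change of -0.81 and an edgeR adjusted p of 0.970. Ddx26b was at 60.8, 65.8 and 71.02 CPM in KO and 80.7, 82.5 and 81.4 CPM in WT, with a log2 fold change of -0.31. None of the 5 genes overlapped between genotypes, which the choice of genes by p in these same libraries favours.

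In the other direction Lamb3 was at 68.6, 71.5 and 71.7 CPM in KO and 55.8, 55.1 and 58.7 CPM in WT (log2 fold change 0.32, SE 0.06, edgeR adjusted p = 0.695). Cfb was at 108, 115 and 106 CPM in KO and 91.9, 89.6 and 89.2 CPM in WT (log2 fold change 0.28, SE 0.06, edgeR adjusted p = 0.970). Within each genotype these levels were close together, and the genotypes did not overlap, which the choice by p favours here as well. Mmp7 was at 26.5, 30.7 and 27.7 CPM in KO and 22.3, 21.3 and 23.2 CPM in WT, a log2 fold change of 0.35. Kcnf1 was a low gene at 3.47, 2.90 and 2.56 CPM in KO and 1.37, 1.77 and 1.74 CPM in WT, a log2 fold change of 0.87. With DESeq2 in place of edgeR, 6 genes passed: Psmb11, Grb10, Neat1 and Miat lower in KO, and Lamb3 and Cfb higher.

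**Figure D3:**
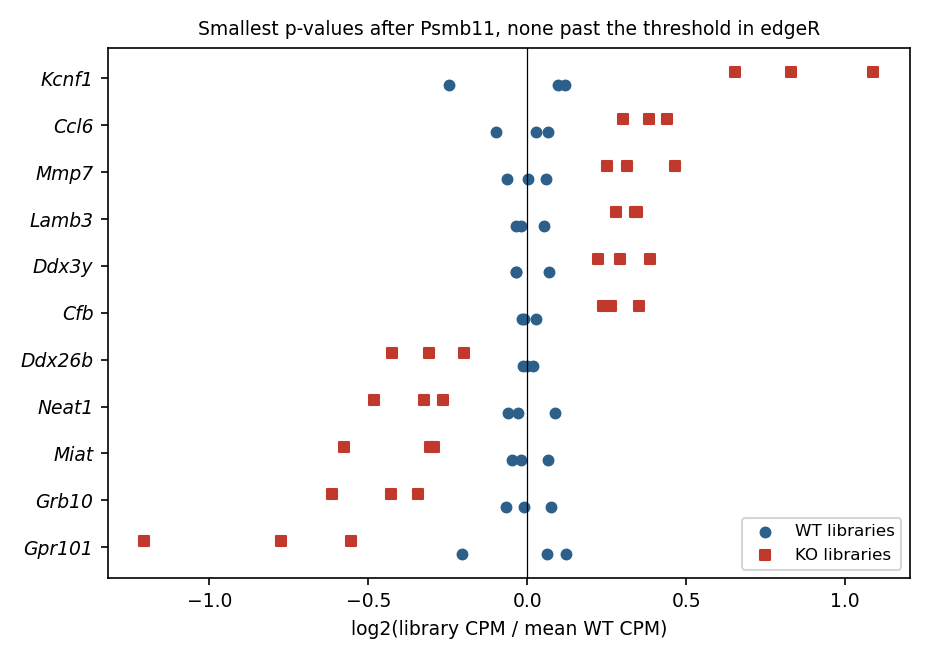
Level of each mTEChi library as log2 of its CPM over the mean WT CPM (x axis) for the 11 named genes with the smallest p-values after Psmb11 (y axis), with circles for WT and squares for KO. The KO and WT points of each gene do not overlap, which the choice by p in these same libraries favours. Over all genes tested 8.77% did not overlap, and none of the 11 passed the threshold in edgeR.

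The remaining proteasome genes showed no change that passed the test. The 20S core is the barrel that holds the proteolytic sites, and Psmb5, Psmb6 and Psmb7 encode its constitutive catalytic subunits. Of 19 constitutive core subunit and assembly factor genes 0 were called, 18 estimates were above 0 with a median of 0.05 (12 of 19 without the first KO library), and 3 did not overlap, all higher in KO (background 4.09%). Every one of the 19 intervals lay within 1.5-fold, from -0.21 to 0.34 at their extremes.

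Psmb5, which Psmb11 replaces in the thymoproteasome and which ends 7.3 kb upstream of its start, was at 63.02, 60.9 and 53.8 CPM in KO and 56.5, 56.9 and 58.3 CPM in WT. The genotypes overlapped (log2 fold change 0.05, 95% interval -0.10 to 0.20). Psma1, an alpha ring subunit and the gene of the list named for its small p, was at 179, 163 and 162 CPM in KO and 154, 160.5 and 153 CPM in WT (log2 fold change 0.11, SE 0.06, edgeR unadjusted p = 0.110). The immunoproteasome subunit Psmb8, the interferon-induced alternative to Psmb5, was at 202, 214 and 187 CPM in KO and 193, 199 and 207 CPM in WT (log2 fold change 0.01, 95% interval -0.14 to 0.15). Psmb9 and Psmb10, which replace the other constitutive catalytic subunits, also overlapped between genotypes, with 95% intervals of -0.17 to 0.17 and -0.11 to 0.18.

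In the authors' RPKM, which allow levels of different genes to be set side by side, WT mTEChi held Psmb10 at 156.0 ± 6.01, Psmb8 at 124 ± 3.39 and Psmb5 at 48.4 ± 0.896 (SD, n = 3). Psmb11 at 1.92 was the lowest of the 7 catalytic subunit genes in WT mTEChi. In KO mTEChi the same 3 genes were at 165 ± 16.5, 129 ± 11.3 and 52.0 ± 6.13 RPKM. Of the 5 immunoproteasome and activator genes 0 were called (median 0.04), and of the 20 genes of the 19S and alternative regulators 0 were called (median 0.02), all with intervals within 1.5-fold.

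Genes of antigen presentation were measured within narrow intervals, and none was called. For MHC class I, 0 of 12 genes were called, 6 estimates were above and 6 below 0, and all 12 intervals lay within 1.5-fold. The heavy chain gene H2-K1 was at 4000.3, 4324 and 4108 CPM in KO and 3865, 4089 and 4344 CPM in WT, with a log2 fold change of 0.02 (95% interval -0.11 to 0.15). The class I regulator Nlrc5 had the smallest p of the list, with 161, 173 and 199.6 CPM in KO and 181, 191 and 209.9 CPM in WT (log2 fold change -0.12, SE 0.08, edgeR unadjusted p = 0.150).

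For MHC class II, 0 of 14 genes were called, 8 estimates were above 0 (6 without the first KO library or the second WT library), and all 14 intervals lay within 1.5-fold. H2-Aa, an alpha chain and a marker of the sorted population, was at 6782, 6817 and 6409 CPM in KO and 6489, 6398 and 6507 CPM in WT (log2 fold change 0.04, 95% interval -0.07 to 0.16). The smallest p belonged to Ctsl, the lysosomal protease cathepsin L, which prepares class II peptides in cortical epithelium, at 271, 289.6 and 239.6 CPM in KO and 229, 229.5 and 237 CPM in WT (log2 fold change 0.20, SE 0.07, edgeR unadjusted p = 0.0133). Ctsl was the 1 gene of the 14 whose levels did not overlap between genotypes (background 4.09%). H2-Ob, a chain of the class II loading inhibitor H2-O, was at 162, 153 and 156 CPM in KO and 159, 186 and 179 CPM in WT (log2 fold change -0.15, SE 0.07, edgeR unadjusted p = 0.0402).

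Regulators of medullary maturation did not differ past the threshold. Aire, which drives transcription of peripheral tissue genes, was at 1596, 1363 and 1565 CPM in KO and 1613, 1591 and 1784 CPM in WT. The second KO library was the lowest of the 6 and the third WT library the highest, and the genotypes overlapped (log2 fold change -0.14, 95% interval -0.29 to 0.01, edgeR unadjusted p = 0.0661). Fezf2, the other such regulator, was at 689.9, 676 and 700.3 CPM in KO and 704, 694 and 715 CPM in WT, with a log2 fold change of -0.03 (95% interval -0.16 to 0.09). The costimulatory ligand gene Cd80 was at 153, 177 and 179 CPM in KO and 179, 173 and 167 CPM in WT (log2 fold change -0.03).

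Of the 25 maturation and costimulation genes 0 were called, 12 estimates were above 0 (14 without the third WT library, 13 with limma) and the median was -0.02. The 3 that did not overlap were all higher in KO (background 4.09%), and they included the dendritic cell and T cell attractants Ccl22 and Ccl17. Ccl22 was at 185, 247 and 187 CPM in KO and 168, 177 and 151 CPM in WT (log2 fold change 0.32, SE 0.10, edgeR unadjusted p = 0.00477). Ccl17 was at 12.98, 19.5 and 11.8 CPM in KO and 11.4, 11.4 and 11.7 CPM in WT (log2 fold change 0.36, SE 0.15, edgeR unadjusted p = 0.0289). In both genes the second KO library was the highest, and without it the log2 fold changes were 0.17 for Ccl22 and 0.11 for Ccl17. Ccl21a, another medullary chemokine gene, is listed at 0 in all 16 libraries, so it could not be tested. Whether its reads went uncounted cannot be told from these counts. Of 20 genes of Aire partners 0 were called, 16 estimates were below 0 and the median was -0.06, and without the first KO library 10 were below 0.

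The number of genes detected differed by less than the spread of the libraries. After each library was thinned to 64753610 reads, 20672, 20921 and 20920 genes had at least 1 read in KO and 20807, 20619.6 and 20904 in WT. The means were 20838 ± 143 and 20777 ± 145 (SD, n = 3), a difference of 61.0 genes (two-sided exact permutation p = 0.5). The lowest library was WT and the next lowest KO, and the genotypes overlapped. With a minimum of 5 reads the difference was -5.3 (exact permutation p = 0.9).

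Tissue-restricted antigen genes are those of peripheral tissues that mTEChi transcribe. Of 51 such genes 0 were called, and 41 estimates were above 0 with a median of 0.11. Without overlap were 3 higher in KO (background 4.09%) and 1 lower (background 4.68%). An edgeR unadjusted p below 0.05 was found for 5, all higher (background 1.65%). Summed over the 51 genes and scaled over the 16 libraries, KO libraries were at 2345 to 2509 CPM and WT libraries at 2244 to 2332 CPM. A large part of these sums came from 1 gene, Csn2. It averaged 1214 CPM in KO and 1093 CPM in WT, scaled over the 6 mTEChi libraries. Without the second KO library 33 of 51 estimates were above 0 with a median of 0.05.

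The milk protein gene Csn2 had the highest level of those with a small p, 1338, 1176 and 1126 CPM in KO and 1146, 1084 and 1048 CPM in WT (log2 fold change 0.15, SE 0.07, edgeR unadjusted p = 0.0477). Ttr, the thyroid hormone carrier made by liver and choroid plexus, was at 11.04, 17.3 and 12.1 CPM in KO and 7.54, 10.4 and 10.1 CPM in WT (log2 fold change 0.52, SE 0.16, edgeR unadjusted p = 0.00484), and its second KO library stood above the other 5 (0.31 without it). Nppa, the atrial natriuretic peptide gene of the heart, was at 18.5, 17.8 and 16.6 CPM in KO and 14.6, 15.01 and 16.3 CPM in WT (log2 fold change 0.21, SE 0.09, edgeR unadjusted p = 0.0405), and Cyp1a2, a liver cytochrome, at 46.5, 38.8 and 38.9 CPM in KO and 40.5, 32.9 and 34.8 CPM in WT (log2 fold change 0.20, SE 0.09, edgeR unadjusted p = 0.0454). Without the first KO library the log2 fold changes of Csn2 and Cyp1a2 were 0.08 and 0.11. Ins2, which encodes insulin, a classical autoantigen, was at 11.1, 10.9 and 10.3 CPM in KO and 8.59, 9.52 and 11.1 CPM in WT (log2 fold change 0.15, 95% interval -0.10 to 0.39). Low genes left wide intervals, as for the myelin gene Mog at 0.263, 0.197 and 0.0967 CPM in KO and 0.139, 0.162 and 0.280 CPM in WT (95% interval -1.36 to 1.23).

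The mimetic cell lists differed in the side on which their estimates fell, while no member of any was called. Tuft cells are chemosensory cells that use the taste transduction pathway and secrete Il25. Of 21 tuft cell genes 20 had estimates below 0, with a median of -0.23 against -0.002 over all genes, 8 had an unadjusted p below 0.05, all lower in KO (background 2.54%), and 3 did not overlap, all lower (background 4.68%).

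Ptgs1, the prostaglandin synthase of tuft cells, had the smallest p, at 19.98, 21.5 and 22.9 CPM in KO and 25.4, 28.1 and 28.9 CPM in WT (log2 fold change -0.35, SE 0.09, edgeR unadjusted p = 8.70e-04). The taste G protein gene Gnat3 was at 20.6, 22.7 and 20.5 CPM in KO and 24.6, 23.4 and 31.3 CPM in WT (log2 fold change -0.31, SE 0.10, edgeR unadjusted p = 0.00920), and Lrmp, an endoplasmic reticulum protein of taste cells, at 59.7, 63.99 and 57.9 CPM in KO and 72.1, 62.9 and 84.5 CPM in WT (log2 fold change -0.27, SE 0.09, edgeR unadjusted p = 0.00878). In Gnat3 and Lrmp the third WT library was the highest of the 6, and without it the log2 fold changes were -0.17 and -0.16. Pou2f3, the transcription factor that tuft cells require, was at 49.7, 64.8 and 65.5 CPM in KO and 54.3, 59.2 and 63.6 CPM in WT with a log2 fold change of 0.02 (95% interval -0.18 to 0.23).

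The tuft sum, scaled over the 16 libraries, was 767, 902 and 887 CPM in KO and 891, 856 and 1104 CPM in WT. The third WT library stood above the other 5, and the first KO library was the lowest. Without that WT library 16 of 21 estimates were below 0 with a median of -0.14, and without the first KO library 19 were below 0 with a median of -0.15. In mTEClo, in libraries of its own, 0 of 21 tuft genes were called and all 21 estimates were below 0, with a median of -0.32. No tuft gene passed the test of the difference between the populations (smallest edgeR adjusted p = 0.945).

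Microfold-like cells transport luminal antigen and express chemokines. Of 10 genes 0 were called, 9 estimates were above 0 with a median of 0.12, and 3 did not overlap, all higher in KO (background 4.09%): Ccl6, Ccl9 and Ccl20. Ccl6 was at 28.8, 30.05 and 27.3 CPM in KO and 20.7, 23.1 and 22.6 CPM in WT (log2 fold change 0.37, SE 0.08, edgeR unadjusted p = 3.32e-04). Ccl9 was at 87.5, 98.2 and 81.2 CPM in KO and 68.3, 79.1 and 68.6 CPM in WT (log2 fold change 0.30, SE 0.08, edgeR unadjusted p = 0.00194). Ccl20, the ligand of CCR6, was at 81.7, 88.9 and 84.9 CPM in KO and 77.4, 79.7 and 72.01 CPM in WT (log2 fold change 0.16, SE 0.07, edgeR unadjusted p = 0.0338). Sox8 and Gp2, a transcription factor and a surface receptor of these cells, had log2 fold changes of 0.12 (SE 0.10) and 0.12 (SE 0.10), with overlapping genotypes. Without the second KO library 6 of 10 estimates were above 0 with a median of 0.03.

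Skeletal muscle genes, including Myog and the acetylcholine receptor subunits, had 13 of 16 estimates below 0 with a median of -0.13, and 0 were called. Des, which encodes the intermediate filament desmin, was at 42.5, 43.9 and 45.3 CPM in KO and 49.9, 52.1 and 53.1 CPM in WT (log2 fold change -0.24, SE 0.07, edgeR unadjusted p = 0.00315), and Actc1, an actin of striated muscle, at 12.6, 8.89 and 10.3 CPM in KO and 12.6, 13.6 and 13.03 CPM in WT (log2 fold change -0.30, SE 0.12, edgeR unadjusted p = 0.0242). In both genes every KO library was below every WT library, as in 3 of the 16 genes (background 4.68%). For Actc1 the nearest libraries were almost level, at 12.601 CPM in the first KO library and 12.632 CPM in the first WT library. Without the second KO library the value of Actc1 was -0.20. Cornified keratinocyte genes had 16 of 19 above 0 with a median of 0.12, but 9 of 19 with a median of -0.01 without the second KO library, and 0 were called. Krtdap, a keratinocyte differentiation gene, was at 61.9, 95.5 and 68.6 CPM in KO and 57.2, 58.7 and 69.7 CPM in WT (log2 fold change 0.28, SE 0.12, edgeR unadjusted p = 0.0367). Its second KO library stood above the rest, and without it the log2 fold change was 0.08.

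Among 15 ciliated cell genes 0 were called, 9 estimates were below 0 (6 without the first WT library), and the smallest p was that of Ccdc39, a component of motile cilia, at 4.39, 4.33 and 5.09 CPM in KO and 9.19, 5.69 and 6.40 CPM in WT (log2 fold change -0.62, SE 0.17, edgeR unadjusted p = 0.00248). Without the first WT library Ccdc39 was at -0.39. Foxj1, their transcription factor, had a log2 fold change of -0.04 (SE 0.07). Among 15 neuroendocrine genes 0 were called, 9 estimates were below 0 and the median was -0.02, and the smallest p was that of the exocytosis gene Stxbp5l (log2 fold change -0.28, SE 0.12, edgeR unadjusted p = 0.0281), at -0.15 without the first KO library and -0.44 without the third. Among 16 intestine and liver genes 0 were called and the median was 0.04. Lypd8, an antibacterial protein of the colon, was at 166, 194 and 177 CPM in KO and 159, 146 and 162 CPM in WT (log2 fold change 0.20, SE 0.07, edgeR unadjusted p = 0.0133), while the regulator Hnf4a had a log2 fold change of 0.18 (SE 0.11).

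**Figure D4:**
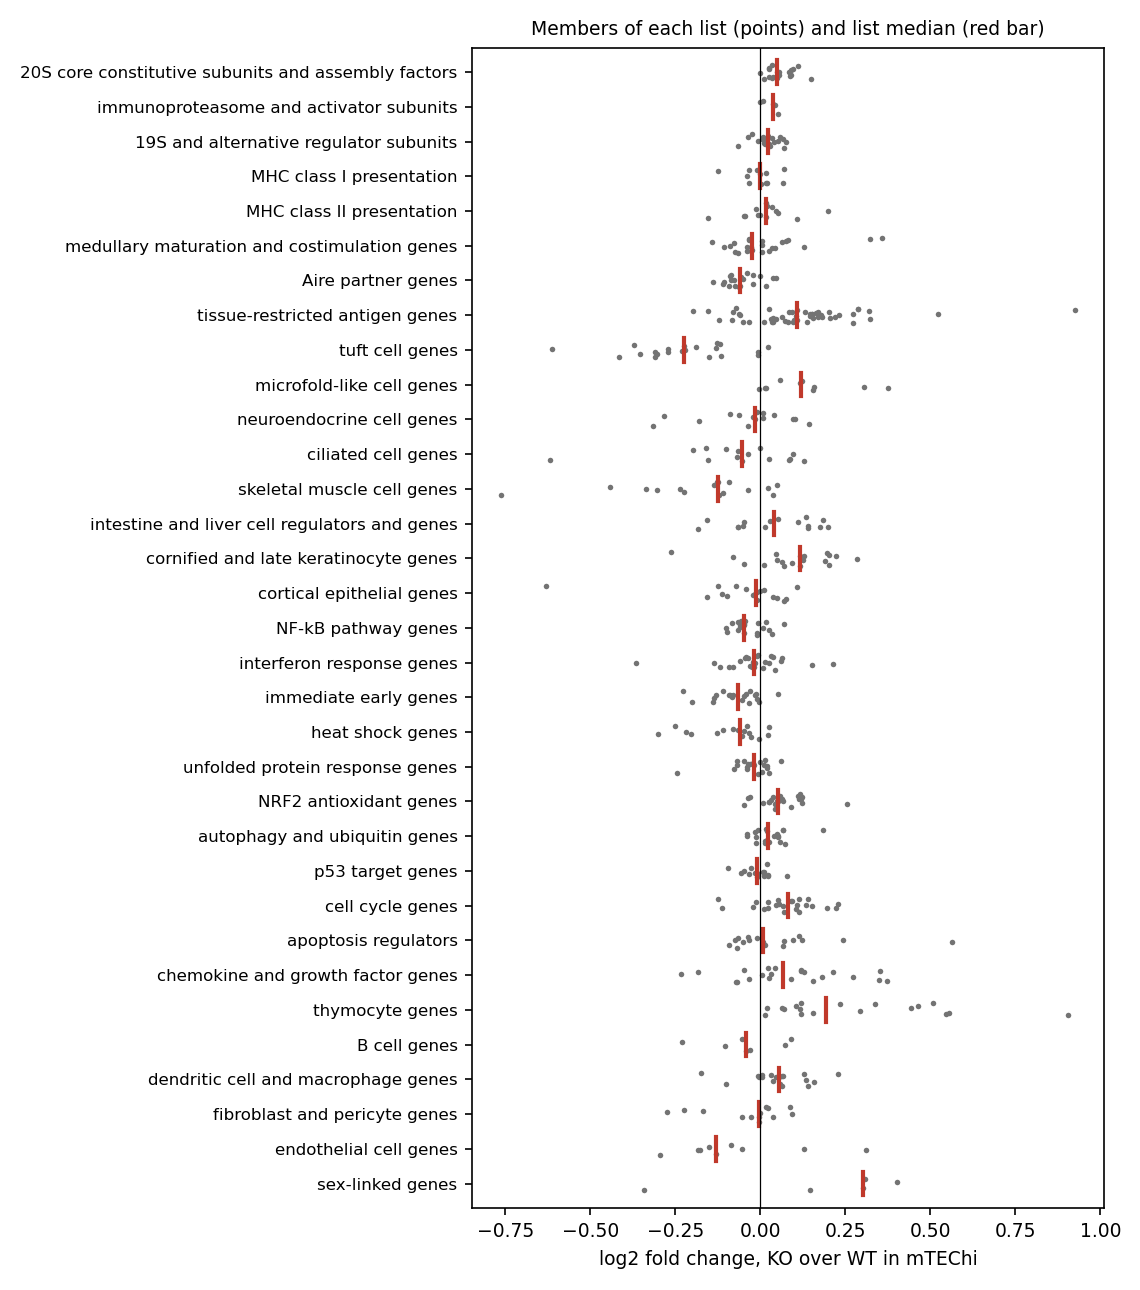
Log2 fold change of KO over WT in mTEChi (x axis) for the tested members of 33 gene lists (y axis), with a grey point for each gene and a red bar for the list median. No member of a list passed the threshold, and the tuft list has its median at -0.23 and the thymocyte list at 0.20 (-0.23 without the first KO library). Psmb11 is not drawn.

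Programs tied to protein turnover and stress, which respond when proteasome capacity is short, were read from 5 lists, in which 0 genes were called. Of 24 NRF2 antioxidant genes 21 were above 0 with a median of 0.05, and 4 did not overlap, all higher in KO (background 4.09%). Gsta2, a glutathione transferase gene, was at 46.2, 59.3 and 51.4 CPM in KO and 41.2, 44.02 and 46.1 CPM in WT (log2 fold change 0.26, SE 0.09, edgeR unadjusted p = 0.00979), and Nfe2l1, the factor that induces proteasome subunit genes, was at 566, 656 and 664 CPM in KO and 598, 626 and 652 CPM in WT with a log2 fold change of 0.01 (95% interval -0.14 to 0.16). Without the second KO library the log2 fold change of Gsta2 was 0.16. All 24 intervals lay within 1.5-fold.

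Of 16 heat shock genes 14 were below 0 with a median of -0.06, and 8 without the first KO library. Hspa1b, the inducible chaperone, was at 637, 791 and 605 CPM in KO and 602, 919 and 984 CPM in WT (log2 fold change -0.30, SE 0.14, edgeR unadjusted p = 0.0445), with WT libraries 2 and 3 highest, and was at -0.17 without the third WT library and -0.49 without the first. Unfolded protein response genes had 13 of 20 below 0 with a median of -0.02, autophagy and ubiquitin genes 16 of 22 above 0 with a median of 0.02 (11 without the second KO library), and p53 targets 9 of 16 below 0 with a median of -0.01 (6 without the first KO library). Hspa5, the main chaperone of the endoplasmic reticulum, had a log2 fold change of -0.04 (95% interval -0.15 to 0.08), and Cdkn1a, the cell cycle inhibitor induced by p53, 0.01 (-0.16 to 0.18).

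Signalling lists gave the same count of 0 called. Of 26 interferon response genes 16 were below 0 with a median of -0.02 (11 without the first KO library). Oas2, an antiviral RNA sensor, was at 10.7, 9.22 and 8.86 CPM in KO and 13.04, 11.6 and 12.4 CPM in WT (log2 fold change -0.36, SE 0.11, edgeR unadjusted p = 0.00459), and Ifit3, another interferon-induced gene, at 32.9, 38.9 and 37.3 CPM in KO and 31.97, 28.3 and 33.8 CPM in WT (log2 fold change 0.21, SE 0.09, edgeR unadjusted p = 0.0272). These 2 genes lay on opposite sides of 0. Of 20 NF-kB pathway genes, which transmit RANK and CD40 signals in medullary cells, 15 were below 0 with a median of -0.05 (10 without the first KO library). Among 22 chemokine and growth factor genes 16 were above 0 with a median of 0.07, with the monocyte chemokine gene Ccl2 at 26.3, 29.01 and 26.7 CPM in KO and 20.3, 24.6 and 22.95 CPM in WT (log2 fold change 0.27, SE 0.09, edgeR unadjusted p = 0.00760).

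Immediate early genes, which are induced within minutes by stimulation or handling, had 19 of 20 estimates below 0 with a median of -0.07, but 5 without the first KO library, 6 without the third WT library and 7 with limma. Their sum, scaled over the 16 libraries, was 7559, 9675 and 9198 CPM in KO and 7700.0, 9468 and 10340.0 CPM in WT. Both number 1 libraries were thus low and the genotypes overlapped. Cell cycle genes had 20 of 24 above 0 with a median of 0.08, and 14 of 24 without the first KO library. Plk1, a mitotic kinase, was at 27.6, 25.7 and 24.7 CPM in KO and 22.2, 24.8 and 20.9 CPM in WT (log2 fold change 0.20, SE 0.09, edgeR unadjusted p = 0.0401), while Mki67, the proliferation marker, had a log2 fold change of -0.13 (SE 0.09).

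Transcripts of other cell types were present in every library. All 18 thymocyte genes had estimates above 0 with a median of 0.20, but 4 of 18 with a median of -0.23 without the first KO library and 8 with limma, and 0 were called. Cd2 had the smallest p of the list, at 3.10, 2.71 and 2.37 CPM in KO and 1.94, 2.17 and 1.60 CPM in WT (log2 fold change 0.51, SE 0.21, edgeR unadjusted p = 0.0265). It was the 1 gene of the list that did not overlap (background 4.09%). Rag1, the recombinase gene of immature T cells, was at 53.8, 15.5 and 13.7 CPM in KO and 30.2, 12.9 and 13.9 CPM in WT (log2 fold change 0.54, SE 0.40, edgeR unadjusted p = 0.193). The first KO library stood far above the rest and the first WT library was next, while the other 4 lay between 12.9 and 15.5 CPM. Cd3e, a T cell receptor chain, followed the same order at 6.26, 2.63 and 2.20 CPM in KO and 3.30, 2.19 and 2.04 CPM in WT. The part of these transcripts in the other results was not tested.

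The other lists of possible admixture were closer together. With sums scaled over the 16 libraries, B cell genes were at 49.2 to 52.9 CPM in KO and 51.7 to 55.1 CPM in WT. Those of dendritic cells and macrophages were at 884 to 945 and 870 to 942 CPM. Fibroblast and pericyte genes summed to 664 to 668 and 653 to 686 CPM, and endothelial genes to 127 to 144 and 139 to 168 CPM. No defining marker of these types was at 0 in an mTEChi library. Endothelial estimates were below 0 for 7 of 9 genes with a median of -0.13, or 0.015 without the first WT library. Tek, of that list, had a log2 fold change of -0.30 (SE 0.10, edgeR unadjusted p = 0.0117). Col1a2, of the fibroblast list, was at -0.27 (SE 0.10, edgeR unadjusted p = 0.0113). Both were lower in KO without overlap (background 4.68%), and 0 genes of either list were called. Of cortical epithelial genes 0 of 18 were called, with Prss16 at 54.6 ± 4.03 CPM in KO and 54.6 ± 4.22 CPM in WT (SD, n = 3). Ccl25, a chemokine that draws thymocyte progenitors, was at 444, 479 and 503 CPM in KO and 534, 553 and 503 CPM in WT (log2 fold change -0.16, SE 0.07, edgeR unadjusted p = 0.0323). In the authors' RPKM Ccl25 averaged 313 in WT mTEChi and 246 in WT cTEC, so it does not mark cortical cells here.

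Every library held Y-linked transcripts and Xist, in proportions that varied. Uty was at 18.7, 18.6 and 18.3 CPM in KO and 12.2, 15.02 and 14.8 CPM in WT (log2 fold change 0.40, SE 0.10, edgeR unadjusted p = 9.82e-04), Ddx3y at 43.6, 40.8 and 38.9 CPM in KO and 32.5, 34.95 and 32.5 CPM in WT (log2 fold change 0.30, SE 0.07, edgeR unadjusted p = 9.42e-04) and Kdm5d at 14.5, 14.3 and 14.3 CPM in KO and 12.3, 10.8 and 11.8 CPM in WT (log2 fold change 0.31, SE 0.10, edgeR unadjusted p = 0.00614). Of the 5 sex-linked genes tested 0 were called, and 4 estimates were above 0. Among those 4, only these 3 Y-linked genes did not overlap, all higher in KO (background 4.09%). Only they had an edgeR unadjusted p below 0.05 on that side. Xist, the X inactivation RNA of female cells, was at 929.6, 1048 and 1406 CPM in KO and 1411, 1552 and 1327 CPM in WT (log2 fold change -0.34, SE 0.11, edgeR unadjusted p = 0.00777), with 2 KO libraries below the other 4. Without the third KO library Xist passed the threshold at -0.53, and without the first KO library it was at -0.22. The part of sex in the results was not tested.

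The region around the mutated gene held no other called gene. Of 254 genes tested within 10 Mb on either side of Psmb11, 0 were called and 10 had an unadjusted p below 0.05 (background 4.19%). Of these 254 genes 7.09% did not overlap between genotypes, against 8.77% of all genes. The log2 fold changes of the 254 ran from -3.03 to 0.57, and the smallest edgeR adjusted p among them was 0.999, so the gene at -3.03 was not called either. Over all genes tested, 191 of the 198 estimates of 2-fold or more belonged to genes below 1 CPM, where intervals were wide. Cdh24, a cadherin gene that begins 2.4 kb past the end of Psmb11 (chromosome 14, 54631992 to 54641364 in mm10), was at 6.64, 5.92 and 5.98 CPM in KO and 7.82, 6.75 and 8.08 CPM in WT. Its KO libraries were all below its WT libraries (log2 fold change -0.29, SE 0.13, edgeR unadjusted p = 0.0411). Acin1, the next gene, had a log2 fold change of -0.08 (95% interval -0.22 to 0.06).

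The genotype difference was then compared between mTEChi and mTEClo, in 1 fit of 12 libraries, by testing the difference of the 2 log2 fold changes. Of 19816 genes 2 passed (0.0101%), Fabp6 and Pappa2, and 1029 had an unadjusted p below 0.05. In neither gene did the genotype difference pass the threshold in mTEChi or in mTEClo alone.

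Fabp6 encodes the bile acid binding protein of the ileum (chromosome 11, 43596040 to 43601562). In CPM scaled over these 12 libraries it was at 52.5, 50.7 and 49.8 in KO mTEChi, 50.6, 47.1 and 44.3 in WT mTEChi, 1.42, 1.14 and 1.18 in KO mTEClo and 0.406, 0.528 and 0.403 in WT mTEClo. The mTEChi groups overlapped, while every KO mTEClo library was above every WT mTEClo library. Log2 fold changes were 0.10 (SE 0.07) in mTEChi and 1.47 in mTEClo, each population fitted alone, and the difference was -1.37 (SE 0.17), edgeR adjusted p = 0.0116. The mTEClo counts behind it were 154, 112 and 121 in KO and 36, 50 and 36 in WT.

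Pappa2 encodes a protease that cleaves IGF binding proteins (chromosome 1, 158711731 to 158957438). It was at 63.6, 67.8 and 65.6 CPM in KO mTEChi, 61.6, 62.1 and 57.3 in WT mTEChi, 4.998, 5.17 and 4.73 in KO mTEClo and 7.56, 7.48 and 7.18 in WT mTEClo. The KO libraries were above the WT libraries in mTEChi and below them in mTEClo. Log2 fold changes were 0.11 (SE 0.07) and -0.58, and the difference was 0.70 (SE 0.09), edgeR adjusted p = 0.0226. When each of the 12 libraries was left out in turn, Fabp6 lost its call in 4 fits (without mTEChi KO 2, KO 3 or WT 2, or mTEClo WT 1), with 0 genes then past the threshold. Pappa2 lost its call in 9 of the 12, in the same 4 and without mTEChi WT 1 or WT 3, mTEClo KO 1 or KO 3, or mTEClo WT 2.

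**Figure D5:**
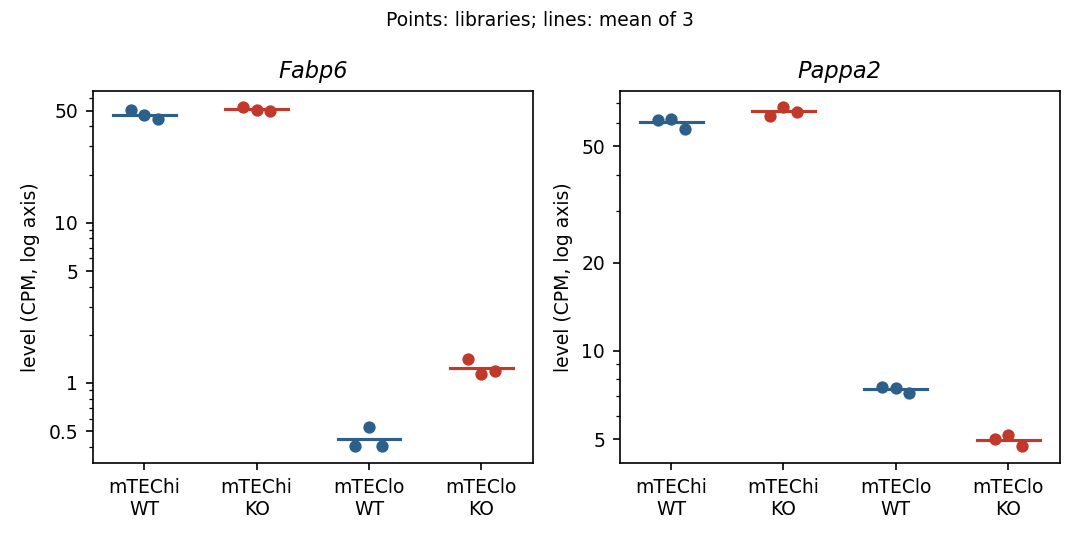
Level in CPM (y axis, log axis, scaled by TMM over 12 libraries) of Fabp6 and Pappa2 by population and genotype (x axis), with points for libraries and lines for the mean of 3. KO and WT lie close together in mTEChi, while in mTEClo each KO library lies above each WT library for Fabp6 and below for Pappa2.

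No other gene of that comparison passed the threshold. Next by p was Ano2, with a difference of 6.51 and an edgeR adjusted p of 0.222. Its mTEClo counts were 0, 0 and 0 in KO and 13, 14 and 4 in WT. Igfbp1, Try5 and Ankrd45 differed by -4.125 (SE 1.15), -3.88 (SE 0.91) and -2.02 (SE 0.42), with edgeR adjusted p of 0.385, 0.385 and 0.435. Hephl1 differed by 4.75 (SE 1.64, edgeR adjusted p = 0.435). Dscaml1, a cell adhesion gene, was at 173, 182 and 187 CPM in KO mTEChi and 175, 172 and 191 CPM in WT mTEChi, and at 33.03, 31.3 and 28.7 and 46.2, 43.5 and 40.4 CPM in mTEClo (difference 0.50 (SE 0.10), edgeR adjusted p = 0.435). Slc6a5, a glycine transporter gene, differed by 1.87 (SE 0.37) with an edgeR adjusted p of 0.385, and Glp2r, the receptor of a gut hormone, by -1.81 (SE 0.40) with an adjusted p of 0.467. In Dscaml1, Slc6a5 and Glp2r the mTEChi genotypes overlapped, and the levels in mTEClo were lower than in mTEChi in every library. In Try5 and Ankrd45 every KO mTEChi library was below every WT mTEChi library (background 4.68%).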

How the data were processed

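RNA of sorted thymic epithelial cells was measured in 16 libraries, of which the 6 of mTEChi were fitted here. Read counts per gene were deposited by the authors, who used CASAVA 1.8.2, HTSeq 0.5.4p1 and mm10, per the submitters' processing notes; strand handling is not given in the sources used here. RPKM were deposited by the authors as well and are used for levels only. The 5 rows that name no gene were dropped. Genes were kept by filterByExpr and tested on the deposited counts with edgeR 4.0.16 (R 4.3.3, TMM scaling, quasi-likelihood F test, Benjamini-Hochberg adjustment over all genes tested, threshold 0.05). SE and 95% intervals come from the dispersion of that fit. Interaction contrasts used the 12 medullary libraries. Counts of genes detected are means of 20 thinnings and were compared by an exact permutation test. The fits were tested on simulated data. DESeq2 1.42.0, limma 3.58.1 and further settings were alternatives.

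Named were Psmb11, the genes with the 6 smallest p-values in each direction, up to 4 members per list by p, the defining markers and the 5 smallest p-values of the difference in each direction, with predicted genes passed over. Members named outside this rule (among them H2-K1, Fezf2, Psmb5, Psmb8 to Psmb10, Ins2, Mog, Pou2f3, Sox8, Gp2, Foxj1, Hnf4a, Nfe2l1, Hspa5, Cdkn1a and Mki67) were chosen for their known roles after values had been seen. The comparison and the 34 lists (600 genes in the table, 596 tested) were chosen with earlier results of these data known. The erythroid list had 0 genes called and 4 of 7 tested, and apoptosis regulators 0 of 17.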

Additional observations from a re-analysis of the deposited data

Results flagged for a closer look

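In 2 genes the KO effect in mTEChi differed from that in mTEClo by the test of the difference itself. For Fabp6, mTEChi minus mTEClo was -1.37 on the log2 scale (SE 0.17, edgeR adjusted p = 0.0116), with levels of 51.0 ± 1.38 and 47.3 ± 3.18 CPM in KO and WT mTEChi and 1.25 ± 0.148 and 0.446 ± 0.0715 CPM in KO and WT mTEClo (SD, n = 3). For Pappa2 it was 0.70 (SE 0.09, edgeR adjusted p = 0.0226), with 65.7 ± 2.09 and 60.4 ± 2.64 CPM in mTEChi and 4.97 ± 0.222 and 7.41 ± 0.202 CPM in mTEClo. The share of reads outside annotated genes also differed between the populations, at 19.8 to 23.7% in mTEChi and 13.7 to 19.1% in mTEClo, and its part in the result was not tested.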

How the results depend on the processing

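Psmb11 stayed lower in KO at a log2 fold change of -3.46 to -3.17 when each library was left out, and lost its call in 1 fit, that of all 16 libraries (-3.34, edgeR adjusted p = 1), in which 0 genes passed for mTEChi and 0 for the difference. DESeq2 called 6 genes in mTEChi and 15 for the difference. Leaving out 1 library gave 1 to 2 genes in mTEChi: Xist joined without the third KO library (2 genes) and Erdr1 without the first WT library (2 genes). For the difference it gave 0 to 4 genes, with 4 without the second mTEClo KO library. Without both number 1 mTEChi libraries, a choice made after seeing the data, 12 genes passed, 3 higher and 9 lower, among them Erdr1, Neat1, Gpr101, Hspa1b, Grb10 and Miat; the cause was not tested. The difference in genes detected reversed to -5.3 with a minimum of 5 reads and to -17.6 without the second WT library, over a range of -17.6 to 143.8 when each library was left out. Size factors of another kind, no filter on low counts and limma with library weights left 1 gene called in mTEChi.

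Over all genes tested, the deviations of same-numbered KO and WT libraries from the group means correlated at 0.0651, -0.0012 and 0.0131. The number 1 libraries of both genotypes were still alike in some lists. Thymocyte genes summed to 430 CPM in KO 1 and 341 CPM in WT 1, against at most 260.4 CPM in the others. Immediate early genes summed to 7559 and 7700.0 CPM, against at least 9198 CPM in the others. A replicate block gave 1 call in mTEChi (Psmb11 at -3.34) and 2 for the difference.

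Depth limited low genes most: below 1 CPM, 15.1% of intervals lay within 2-fold, against 93% at 1 to 10 CPM. Whether genotype was confounded with a preparation date or pool cannot be told from the labels.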
